A study of Mus musculus with 20 samples.

Results

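The Period genes Per1, Per2 and Per3 and the cryptochrome genes Cry1 and Cry2 were followed through the day in dermal lymphatic endothelial cells (LECs), the cells that line the lymphatic vessels of the skin. The genes were chosen by symbol as the negative limb of the circadian clock, and the rule itself uses no measured value, although the choice was made with earlier results of these data known. All 5 were among the 24062 gene symbols counted, and all 5 passed the filter on low counts, which left 19209 genes for the tests. The LECs were sorted as CD31+podoplanin+ cells from the ear skin of wild-type C57BL/6 mice of postnatal day 56 that were kept under a light and dark cycle. The methods name the substrain as C57BL/6N. They were collected at zeitgeber time 1 (ZT1), which is the morning hour after lights on, in the middle of the day (ZT7), in the evening (ZT13) and at night (ZT19). The first 2 of these time points fall in the light phase and the other 2 in the dark phase. Each time point had 5 RNA sequencing libraries, 20 in all, and each library pooled the ears of more than 1 mouse, so that n counts pools of mice and not single animals. No group carried a mutation or a treatment, and the comparison is between times of day.

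In the circadian clock, CLOCK and its partner BMAL1, the product of Arntl, switch on the Period and cryptochrome genes through E-box sequences. PER and CRY proteins then gather in a complex that returns to the nucleus and holds CLOCK and BMAL1 back, which closes a feedback loop of about a day. PER2 is the central scaffold of that complex, PER1 is its close relative and also an early response gene, PER3 is largely dispensable for the rhythm itself, and CRY1 is the stronger and later of the 2 CRY repressors. D-box sequences, bound by the PAR bZIP factors DBP, TEF and HLF and by their antagonist NFIL3, add a further input.

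The start regions of the members with a RefSeq window in build GRCm38.p6, from 250 bases before to 50 bases after a transcript start, are printed to show which clock motifs each holds. A window was found for 4 of the 5 genes, Per1 (2 starts), Per3, Cry1 and Cry2, and not for Per2. Capitals mark every match on either strand to the letters CACGTG (E-box, the same on both strands), CACGTT (E-prime-box, printed as AACGTG where it lies on the other strand), TTANGTAA (D-box), TGACGTCA (CRE) and AGGTCA (ROR element, printed as TGACCT where it lies on the other strand). No 2 matches overlapped. The windows lie at chr11:69098699-69098998 (plus strand, Per1), chr4:151044616-151044915 (minus strand, Per3), chr10:85185005-85185304 (minus strand, Cry1) and chr2:92434020-92434319 (minus strand, Cry2), and each is written 5′ to 3′ on the gene's own strand.
Per1: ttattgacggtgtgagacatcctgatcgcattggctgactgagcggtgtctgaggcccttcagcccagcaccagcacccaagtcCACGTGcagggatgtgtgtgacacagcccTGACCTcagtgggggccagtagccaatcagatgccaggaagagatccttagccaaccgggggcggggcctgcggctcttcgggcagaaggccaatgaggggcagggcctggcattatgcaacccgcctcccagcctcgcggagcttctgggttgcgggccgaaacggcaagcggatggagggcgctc
Per3: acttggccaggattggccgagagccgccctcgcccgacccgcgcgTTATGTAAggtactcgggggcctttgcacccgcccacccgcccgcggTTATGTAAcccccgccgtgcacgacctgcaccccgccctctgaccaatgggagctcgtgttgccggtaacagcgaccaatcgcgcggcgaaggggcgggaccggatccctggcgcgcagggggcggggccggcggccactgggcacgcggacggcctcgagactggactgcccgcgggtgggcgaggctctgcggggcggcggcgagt
Cry1: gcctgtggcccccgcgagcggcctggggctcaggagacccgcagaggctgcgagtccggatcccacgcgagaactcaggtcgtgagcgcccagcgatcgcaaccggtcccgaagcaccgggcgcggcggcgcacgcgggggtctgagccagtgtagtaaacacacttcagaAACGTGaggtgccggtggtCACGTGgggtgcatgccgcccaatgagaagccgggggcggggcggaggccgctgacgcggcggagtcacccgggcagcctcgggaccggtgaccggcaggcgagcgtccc
Cry2: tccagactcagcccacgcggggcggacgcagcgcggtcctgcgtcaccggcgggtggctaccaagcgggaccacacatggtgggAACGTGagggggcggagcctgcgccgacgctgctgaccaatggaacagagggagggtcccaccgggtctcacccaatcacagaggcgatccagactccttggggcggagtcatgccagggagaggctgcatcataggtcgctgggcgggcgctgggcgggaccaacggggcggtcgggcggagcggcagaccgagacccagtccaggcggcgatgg

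The members did not carry the same letters. Per1 had an E-box that begins 166 bases before the start and a ROR element 137 bases before it, and its other window, at chr11:69099902-69100201, held no match. Per3 had 2 D-boxes, both spelled TTATGTAA, at 205 and 158 bases before the start, and no E-box in the window. Cry1 had an E-prime-box at 79 and an E-box at 60 bases before the start, and Cry2 had a single E-prime-box at 166 bases. Among the 32851 windows of the same length in the table, 7.15% held CACGTG, 4.68% CACGTT, 2.32% TTANGTAA, 1.79% TGACGTCA and 16.3% AGGTCA. The 5 windows had a GC content between 63.3% and 73.3%, above the median of all windows (52.7%). A match of letters is a description of the window, and nothing was measured here that tells whether a factor binds there.

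Depth differed between the libraries. Between 4475111 and 42002363 reads per library were counted on genes, and the share of reads on genes, of those on a gene or on no gene, ran from 12.7% to 81.6%. Its median was highest at ZT19 (64.0%), and the share stood far above the other libraries of its time point in ZT7 replicate 2 (62.3%) and ZT13 replicate 5 (79.9%). The deepest libraries had the fewest genes with a count. ZT13 replicate 5 (42002363 reads) held 13309 such genes and ZT19 replicate 1 (36022409 reads) 12477. ZT7 replicate 3, with the fewest reads (4475111), held 20002. The mean log2 normalized count of 8 LEC markers lay between 11.8 and 13.2 in every library, and none of the 8, Prox1 among them, was at 0 in any library. It had group means of 12.92, 12.34, 12.71 and 12.26 at ZT1, ZT7, ZT13 and ZT19. The lowest ZT1 library (12.74) was above the highest of ZT7 (12.61) and of ZT19 (12.67). Markers of other skin cells were present too and also moved with the time point. The 14 keratinocyte markers had group means of 10.2, 11.2, 8.41 and 11.3 at ZT1, ZT7, ZT13 and ZT19, with a range over libraries of 6.72 to 12.2, and no keratinocyte marker was at 0 in all libraries. The 8 fibroblast markers had means of 8.75, 6.94, 7.15 and 7.50 (3.51 to 9.58), the 6 blood endothelial markers 8.09, 7.97, 8.11 and 6.40 (3.76 to 8.82) and the 6 leukocyte markers 4.58, 4.48, 4.09 and 2.32 (0.37 to 5.97). These lists also had no gene at 0 in all libraries, although Lyz2, a myeloid marker, was at 0 in 7 of 20. The blood endothelial markers did not move together. From ZT1 to ZT19 the most abundant of them, Emcn and Plvap, rose in mean normalized counts (3192 to 4302 and 1672 to 1943). Flt1 (122 to 22.8), Vwf (215 to 82.6), Notch4 (103 to 76.6) and Selp (45.0 to 3.95) fell. In such bulk libraries, fewer cells of a type and less RNA per cell cannot be told apart.

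None of the 5 genes passed a Benjamini-Hochberg adjusted p of 0.05 in edgeR's quasi-likelihood test among the 4 time points, although the highest and the lowest mean of each of 4 of them differed by about 2 to 3 times. Of all genes, 0.422% passed that test. At an unadjusted p under 0.05, 3 of the 5 were found (Per1, Per3 and Cry1), against 15.7% of all genes. With DESeq2, 1 of the 5, Per3, passed (adjusted p = 0.0215), against 2.96% of all genes. In the test of a 24-h curve, fitted as a cosine and a sine, edgeR again called 0 of 5 (0.0312% of all genes), 4 of 5 had an unadjusted p under 0.05 (all but Cry2, against 9.23% of all genes), and DESeq2 called Per3 alone (adjusted p = 0.0199, 0.39% of all genes). The departure from a 24-h curve, which 4 time points allow as ZT1 minus ZT7 plus ZT13 minus ZT19, was called for 0 of 5 by edgeR (0.307% of all genes), and 0 of 5 had an unadjusted p under 0.05 (13.2% of all genes). DESeq2 called 0 of 5 there as well (1.37% of all genes).

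**Figure D1:**
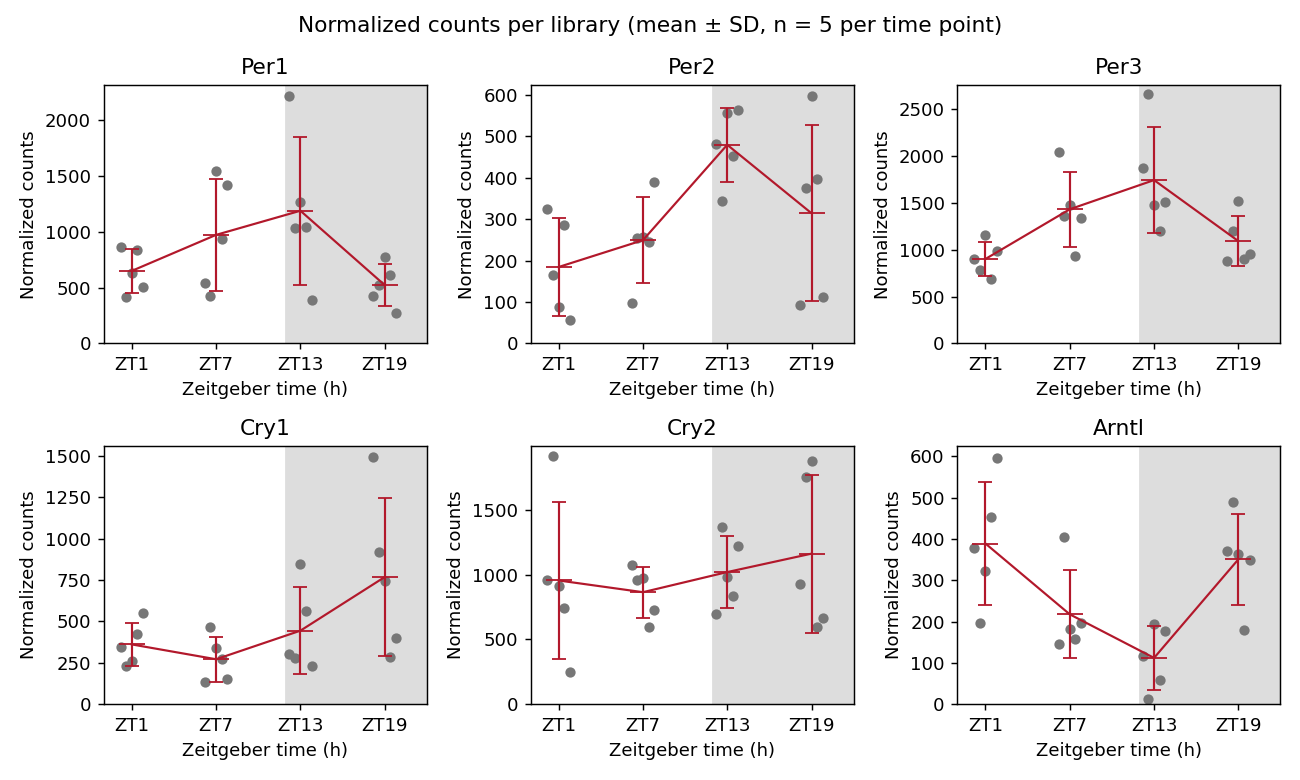
Normalized counts of Per1, Per2, Per3, Cry1, Cry2 and Arntl in each of the 20 libraries (grey points) by zeitgeber time, with the mean ± SD of 5 libraries (red) and the dark phase shaded. The means of the 3 Period genes are highest at ZT13, that of Cry1 is highest at ZT19, and that of Arntl is lowest at ZT13.

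Per1, the Period gene that responds fastest to outside signals, had its highest mean in the evening and its lowest at night. At ZT1 the 5 libraries held 860.3, 413, 633, 834 and 510.0 normalized counts (mean 650.0 ± 196, SD, n = 5). In the day, at ZT7, they held 538, 426, 1549, 934 and 1415 (973 ± 504, SD, n = 5), so that 3 libraries were above and 2 below the ZT1 maximum. The ZT13 libraries held 2218, 1037, 1263, 1039 and 385 (1189 ± 662, SD, n = 5), with the first far above and the fifth far below the others. At night, ZT19, the values were 428, 522, 776, 614 and 275 (523 ± 189, SD, n = 5). Apart from ZT13 replicate 5, every ZT13 library exceeded every ZT19 library. On the log2 scale Per1 differed by -1.18 from ZT13 to ZT19 (95% confidence interval -2.03 to -0.34), while the median of all genes in that pair was -0.22. The difference did not pass edgeR's test (adjusted p = 0.114). Without ZT13 replicate 1, which had the highest normalized count of that time point, it was -0.83 (adjusted p = 0.325). It passed without ZT13 replicate 5, which had the lowest (-1.41, adjusted p = 0.0454, where 4.3% of all genes passed), and in DESeq2 (-1.37, adjusted p = 0.0346, where 9.24% of all genes passed).

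The level of Per1 moved with a property of the libraries. Over the 20 libraries its log2 normalized count was lower where more of the reads fell on genes (the share taken as log2 odds, Pearson's r = -0.72 with a permutation p of 0.00035 and Spearman's rho = -0.75 with a permutation p of 0.0002). Adjusted over 30 relations of 5 genes to 6 properties, these were 0.0105 and 0.006. Within time points r was -0.81, and it was -0.69 once the 2 libraries with the most extreme odds were set aside. Over the 5 libraries of a time point, r was strongest at ZT7 (-0.94) and ZT13 (-0.91) and weaker at ZT19 (-0.50) and ZT1 (-0.25). The median r of all 19209 genes with these odds was -0.35, and 17.7% of them had a lower r than Per1, as did 3.4% of the 10720 genes with a mean of at least 100 normalized counts. Per1 also followed the leukocyte score (r = 0.62 with a permutation p of 0.00332, adjusted 0.0498, and rho = 0.62 with a permutation p of 0.00409, adjusted 0.0613), with r = 0.61 within time points and 0.53 without the 2 most extreme libraries. The leukocyte markers were low, with medians over the 20 libraries between 5.40 and 70.3 normalized counts. Whether this relation is separate from that with the odds was not tested. None of the other 28 relations had an adjusted p under 0.05. When the odds entered the edgeR fit as a covariate, the Per1 difference between ZT13 and ZT19 shrank to -0.33 (edgeR, adjusted p = 0.729), and its fitted peak moved from 9.95 h to 13.8 h. For Per3 the same r was 0.02, and its peak moved from 11.5 h to 11.3 h. The share of reads on genes itself differed with the time point (median 22.9% at ZT13 and 64.0% at ZT19). Its part in the Per1 values and that of the time of day cannot be told apart.

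**Figure D2:**
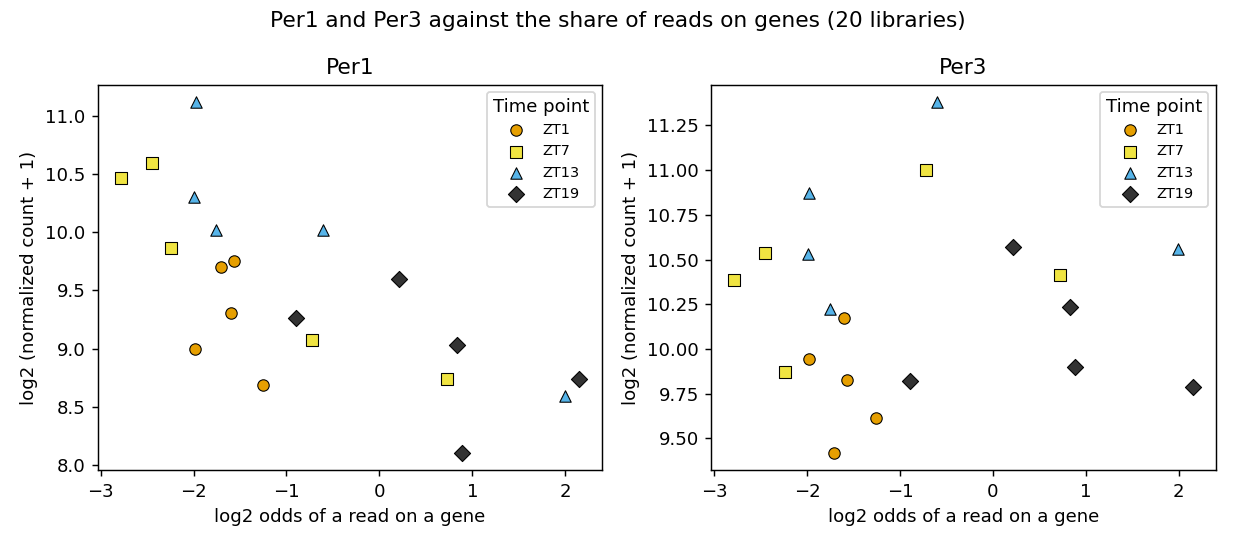
Log2 normalized counts (pseudocount 1) of Per1 and Per3 against the log2 odds that a read fell on a gene, in the 20 libraries, with the time point as colour and shape. Per1 is lower towards the right (r = -0.72), with ZT13 replicate 5 at the lower right among ZT19 libraries, while Per3 has no such slope (r = 0.02).

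Per2, the scaffold of the repressor complex, was lowest in the morning and highest in the evening. At ZT1 it held 325, 166, 88.7, 286 and 57.5 normalized counts (185 ± 118, SD, n = 5). Its ZT7 libraries held 98.3, 255, 258, 245 and 391 (249 ± 104, SD, n = 5). At ZT13 it held 482, 344, 557, 453 and 564 (479.9 ± 90.0, SD, n = 5), the tightest group of the 4. All 5 evening libraries exceeded all 5 morning libraries, a separation that 1.47% of all genes showed between ZT1 and ZT13. At ZT19 the libraries split, with 374, 598 and 397 in 3 of them and 92.1 and 112 in the other 2 (315 ± 213, SD, n = 5). Between ZT1 and ZT13 Per2 differed by 1.37 on the log2 scale (95% confidence interval 0.32 to 2.43), and the difference did not pass edgeR's test (adjusted p = 0.680). The lowest count behind these values was 24 in ZT1 replicate 5 (exact Poisson 95% interval 15.4 to 35.7), so counting error adds to the spread in the morning libraries. These intervals cover counting error only, since amplified cDNA was counted without molecular identifiers.

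Per3, the third member of the family, had the smallest unadjusted p of the Period genes among the 4 time points (edgeR, 0.0171). Its ZT1 libraries held 905, 783, 1153, 684 and 984 normalized counts (902 ± 181, SD, n = 5). In the day the values were 2045, 1361, 1483, 934 and 1339 (1432 ± 399.9, SD, n = 5). The evening libraries held 1874, 2660.5, 1479.7, 1196 and 1509 (1744 ± 566, SD, n = 5). As for Per2, every ZT13 library exceeded every ZT1 library, and these 2 genes were the only members without overlap in any of the 6 pairs of time points. The share of all genes without overlap in the other pairs was 1.75% between ZT1 and ZT7, 8.56% between ZT1 and ZT19, 1% between ZT7 and ZT13, 1.94% between ZT7 and ZT19 and 2.48% between ZT13 and ZT19. At ZT19 the values had a mean of 1093 ± 270.2 (884, 1206, 1517, 903 and 954, SD, n = 5). From ZT1 to ZT13 Per3 differed by 0.95 on the log2 scale (95% confidence interval 0.34 to 1.56), where the median of all genes was -0.06. The difference missed the threshold in edgeR (adjusted p = 0.532) and passed it in DESeq2 (1.03, adjusted p = 0.0313, where 0.333% of all genes passed). DESeq2 also called Per3 lower at ZT19 than at ZT13 (-0.82, adjusted p = 0.0356, where 9.24% of all genes passed), which edgeR did not (-0.67, adjusted p = 0.208).

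Cry1, the stronger repressor of the 2 cryptochromes, was ordered differently and had its highest mean at night. At ZT1 it held 344, 228, 260.1, 424 and 548 normalized counts (361 ± 129.6, SD, n = 5). The day libraries were the lowest, with 134, 465, 336, 270.3 and 152 (271 ± 137, SD, n = 5). In the evening the values were 300.4, 277, 849, 562 and 232 (444 ± 261, SD, n = 5). At ZT19 they were 1492, 918, 744, 285 and 398 (768 ± 479, SD, n = 5), so that 3 night libraries stood above every day library and the other 2 lay within the range of the day. From ZT7 to ZT19 Cry1 differed by 1.50 on the log2 scale (95% confidence interval 0.55 to 2.45), against a median of all genes of -0.20, and missed the threshold in edgeR (adjusted p = 0.107). Without ZT19 replicate 1, the highest library, the difference was 1.11. DESeq2 called it (1.39, adjusted p = 0.0464), in a pair in which it called 10.8% of all genes. With the scores of keratinocytes and fibroblasts in the fit, edgeR called it too (1.54, adjusted p = 0.0439), in a fit that called 9.32% of all genes in the pair.

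Cry2, the other cryptochrome, had similar means at the 4 time points and wide spreads. The values were 959, 1911, 911, 739.7 and 251 at ZT1 (954 ± 603, SD, n = 5) and 1070.4, 955, 971, 597 and 727 at ZT7 (864 ± 195, SD, n = 5). They were 694, 1366, 979.8, 833 and 1223 at ZT13 (1019 ± 276, SD, n = 5) and 925, 1753, 1873, 593 and 661 at ZT19 (1161 ± 609, SD, n = 5). All 4 groups overlapped. The difference from ZT7 to ZT19 was 0.43 on the log2 scale (95% confidence interval -0.40 to 1.25, edgeR adjusted p = 0.574). That interval reaches past the 0.95 seen in Per3 in another pair, ZT1 to ZT13. From ZT7 to ZT19 Per3 differed by -0.39. The Cry2 difference was 0.19 without ZT19 replicate 3, 0.23 without ZT19 replicate 2 and 0.07 when the odds that a read fell on a gene entered the fit (edgeR adjusted p = 0.826, 0.798 and 0.988). An exon of Cry2 overlaps the antisense transcript D930015M05Rik, which held between 0 and 89 counts per library. The library kit does not mark strand, so reads of the shared stretch cannot be told apart.

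Over all 30 comparisons of a member between a pair of time points, edgeR called 0, with adjusted p of 0.107 or more, and 9 had an unadjusted p under 0.05. By pair, 1 of 5 members had such a p between ZT1 and ZT7 (4.97% of all genes), 3 of 5 between ZT1 and ZT13 (5.37%), 1 of 5 between ZT1 and ZT19 (21.6%), 0 of 5 between ZT7 and ZT13 (2.59%), 2 of 5 between ZT7 and ZT19 (19.7%) and 2 of 5 between ZT13 and ZT19 (19.2%). The share of all genes called by edgeR was at most 0.588%, between ZT13 and ZT19. It was 0.00521% between ZT1 and ZT7, 0.0208% between ZT1 and ZT13, 0.0156% between ZT1 and ZT19 and likewise between ZT7 and ZT19, and 0.0937% between ZT7 and ZT13. These shares rest on few genes and moved with single libraries. Between ZT1 and ZT19 the share was 4.55% without ZT19 replicate 4 and 0.963% without ZT13 replicate 5, and between ZT13 and ZT19 it was 4.3% without ZT13 replicate 5. DESeq2 called 4 of the 30, those named above for Per1, Per3 (2 pairs) and Cry1. After ZT7 replicate 2 and ZT13 replicate 5, the libraries with a high share of reads on genes for their time point, were left out together, edgeR called 2 of the 30. These were Per1 from ZT13 to ZT19 (-1.28, adjusted p = 0.0307, where 10.6% of all genes passed) and Cry1 from ZT7 to ZT19 (1.96, adjusted p = 0.0245, where 12.1% passed). This setting was chosen after the values were seen.

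The fitted 24-h curves ordered the members from day to night, with an order of the Period genes that depended on the fit. Per1 peaked first, at 9.95 h (jackknife SE 1.49 h, amplitude 0.62 on the log2 scale), then Per3 at 11.5 h (SE 1.06 h, amplitude 0.51) and Per2 at 13.9 h (SE 1.43 h, amplitude 0.71). Cry1 followed at 18.3 h (SE 0.98 h, amplitude 0.76). With each library left out in turn, the peak of Cry1 stayed between 17.8 and 18.6 h and those of the Period genes between 8.94 and 14.5 h, so that these ranges did not meet. For each of these genes the range was narrower than 1 SE on either side of the peak. Such ranges do not test whether the peaks differ. When the odds that a read fell on a gene entered the fit, Per1 peaked at 13.8 h, after Per3 at 11.3 h and before Per2 at 14.5 h, and Cry1 stayed at 18.2 h. The intervals of 1 SE of neighbouring Period genes overlapped. The peak of Cry2, at 18.2 h, had an SE of 3.91 h and an amplitude of 0.22, and carries little information. For comparison, Dbp, a direct output of the clock, peaked at 8.69 h (SE 0.58 h) and Arntl at 23.6 h (SE 0.88 h). Since no member passed the 24-h test in edgeR (adjusted p = 0.496 for Per1, 0.520 for Per2, 0.415 for Per3, 0.415 for Cry1 and 0.812 for Cry2), these peaks are descriptions of the means at 4 time points.

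**Figure D3:**
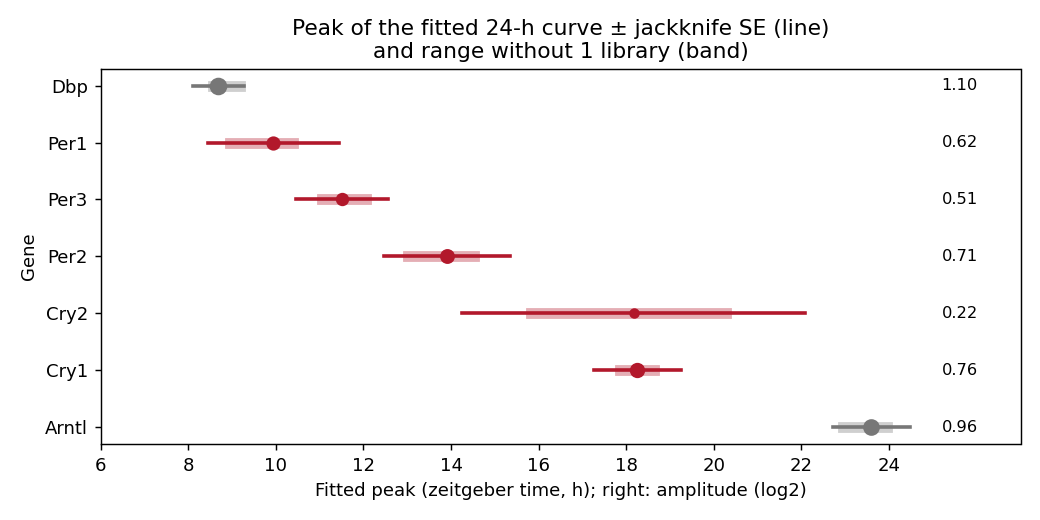
Fitted peak of the 24-h curve for the 5 members (red) and for Dbp and Arntl (grey), in hours of zeitgeber time, with the jackknife SE (line), the range when each library is left out (band) and the amplitude on the log2 scale at the right. The Period genes lie between 9.95 and 13.9 h and Cry1 at 18.3 h, and the line of Cry2 is the longest.

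Ratios of 2 genes within a library do not depend on how the library is scaled. Arntl, the activator gene that runs opposite to the Period genes in many tissues, served as the denominator of 3 of them and had its lowest values in the evening, with 116, 12.7, 194, 59.7 and 177 normalized counts at ZT13 against a mean of 389 ± 149 (SD, n = 5) at ZT1. The log2 ratio of Per2 to Arntl was -0.21, -0.24, -1.86, -0.66 and -3.38 in the morning libraries. It was 2.05, 4.75, 1.52, 2.92 and 1.67 in the evening libraries, so that all 5 were above all 5 of ZT1 and also above all 5 of ZT7 and of ZT19. The mean at ZT13 was higher by 3.85 than at ZT1 and by 2.41 than at ZT7, and the difference from ZT13 to ZT19 was -3.02. Each of the 3 comparisons had the smallest p that 5 against 5 allow (p = 0.00794 in a two-sided exact permutation test, or 0.0635 after adjustment over 48 comparisons of 8 ratios), and none passed after adjustment. Of the ratios of all other genes tested to Arntl, 13.5% were likewise higher at ZT13 without overlap against ZT1, 2.57% against ZT7 and 9.39% against ZT19, and Arntl alone did not overlap between ZT1 and ZT13 (-1.79 on the log2 scale). An exon of Arntl overlaps the antisense gene Gm45355, for which no count is used here, and the limit given for Cry2 holds for Arntl and its ratios too.

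The same held for Per3 against Arntl, whose groups did not overlap between ZT1 and ZT13 (a difference of 3.13) and between ZT13 and ZT19 (-2.73), and for Cry1 against Arntl between ZT1 and ZT13 (2.40), all with an exact permutation p of 0.00794 and an adjusted p of 0.0635. Cry1 itself differed by 0.30 between ZT1 and ZT13 in edgeR's fit (unadjusted p = 0.518). The ratio of Cry1 to Arntl was nearly the same in all 5 morning libraries (-0.31 to 0.22). These ratios share their denominator, and the highest value of each at ZT13 came from replicate 2, in which Arntl had 12 counts (exact Poisson 95% interval 6.2 to 21.0). The ratio of Per3 to Cry1, which holds no Arntl, was 3.93, 1.55, 2.14, 1.79 and 3.14 at ZT7 and -0.76, 0.39, 1.03, 1.66 and 1.26 at ZT19. The difference from day to night was -1.79 (exact permutation p = 0.0159, adjusted p = 0.0952), and the groups overlapped in 1 night library. Cry1 against Cry2 differed by 1.12 between the same time points (exact permutation p = 0.0476, adjusted p = 0.190). Of the 48 comparisons 12 had an unadjusted p under 0.05, of which 10 hold Arntl, and 0 passed after adjustment. Per1 against Per2, Per3 against Per2 and Per2 against Cry1 gave none of the 12.

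**Figure D4:**
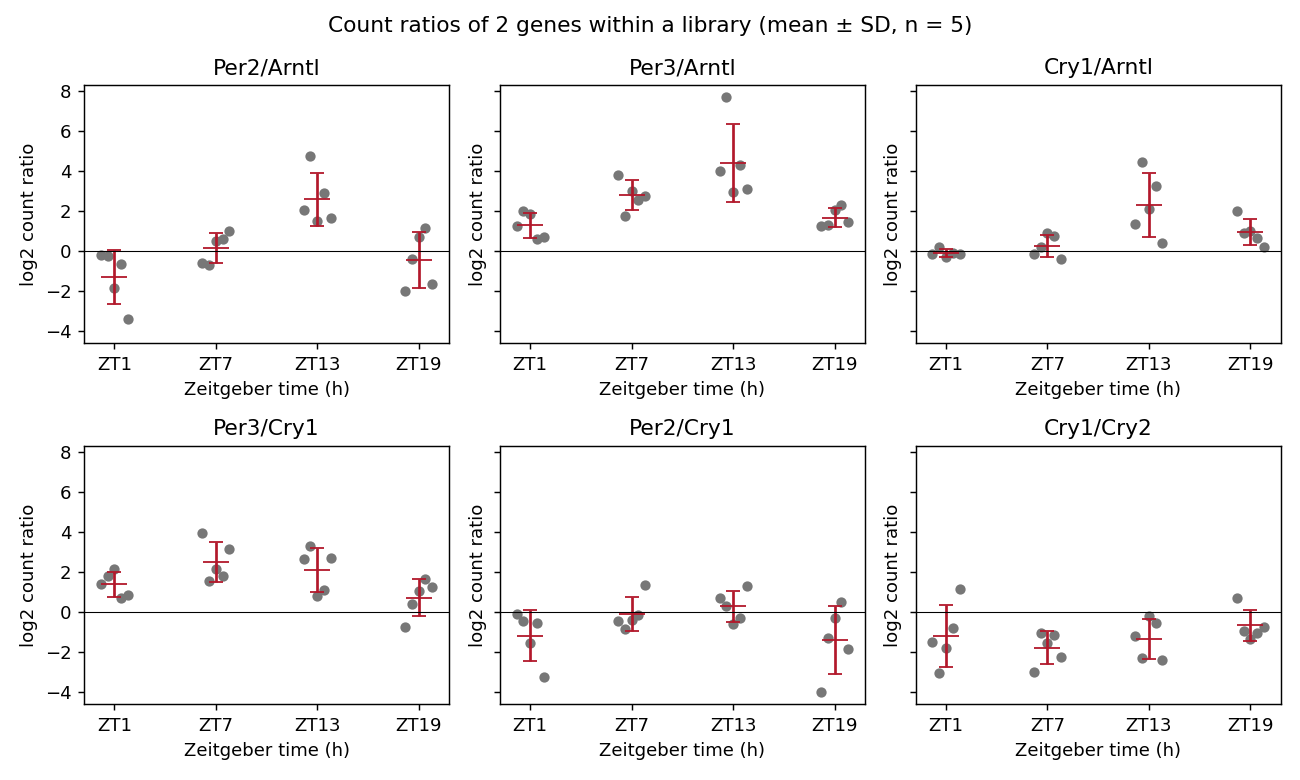
Log2 ratios of 2 genes' counts in the same library by zeitgeber time, for 6 of the 8 ratios, with each library as a point and the mean ± SD of 5 libraries in red. The 5 values of Per2 to Arntl at ZT13, from 1.52 to 4.75, lie above all values of the other time points.

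Per kb of exonic length, Per2 was the least abundant of the 5 genes. The mean over the 20 libraries was 52.5 normalized counts per kb for Per2, 135 for Per3, 138 for Cry1, 148 for Per1 and 158 for Cry2. Per2 was lower than Per3 and Cry2 in 20 of 20 libraries, lower than Per1 in 19 and lower than Cry1 in 18. The mean log2 difference of Per1 from Per2 was 1.58, and that of Per2 was -1.56 from Per3, -1.41 from Cry1 and -1.74 from Cry2, each past the threshold in a two-sided sign-flip permutation test over 20 libraries (100000 resamples, adjusted p between 6.67e-05 and 0.000125 over 10 pairs). The other 4 genes were not ordered by this measure, with 6 pairs of adjusted p between 0.363 and 0.918. Their order depends on the length used. Per 1 transcript with the longest coding sequence, 8 of 10 pairs passed, and per coding length 9 of 10, with Cry2 highest and Per2 lowest in both. Among the Period transcripts per kb, the median share of Per2 at a time point lay between 13.7% (ZT7) and 22.7% (ZT19), and single libraries ran from 4.84% to 29.9%.

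**Figure D5:**
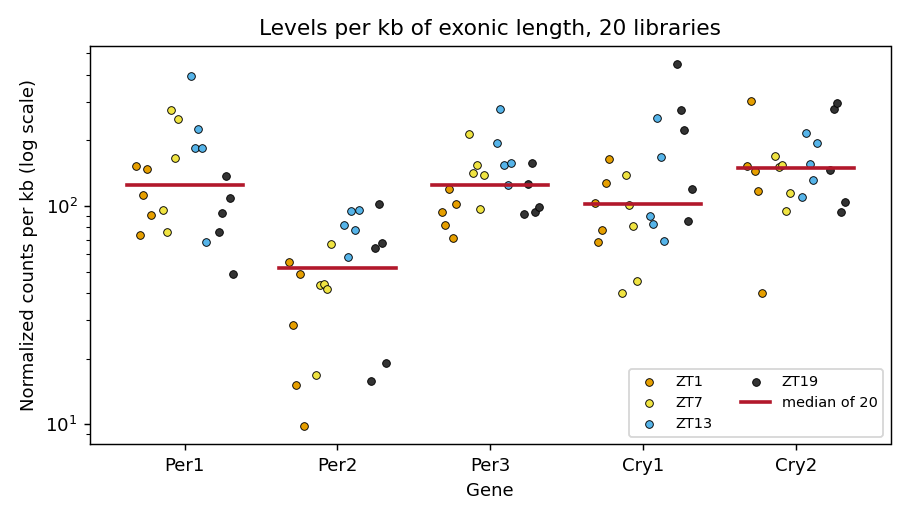
Normalized counts per kb of exonic length (log scale) of the 5 genes in the 20 libraries, coloured by time point, with the median of the 20 in red. The median of Per2 is 52.2, and those of the other 4 genes lie between 102 and 149.

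The genes lie on 5 chromosomes. In the GENCODE annotation of build GRCm38, which mm10 denotes, Per1 (ENSMUSG00000020893.17) spans chr11:69095217-69109960 on the plus strand, and the other 4 lie on the minus strand. Per2 (ENSMUSG00000055866.9) spans chr1:91415982-91459324, Per3 (ENSMUSG00000028957.12) chr4:151003652-151044665, Cry1 (ENSMUSG00000020038.10) chr10:85131700-85185064 and Cry2 (ENSMUSG00000068742.11) chr2:92403646-92434043. The span of Per3 overlaps that of Camta1 on the same strand, and no exon is shared. The counts cover the exons of each gene as a whole, and transcripts of 1 gene cannot be told apart.

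The genes most like each member over the 20 libraries, among 10719 others with a mean of at least 100 normalized counts, differed from member to member. For Per1 they were Shank3, a synaptic scaffold (Pearson's r = 0.84), the repressor gene Cic (0.81) and Tnrc18 (0.79), which themselves had r between -0.84 and -0.70 with the log2 odds that a read fell on a gene. For Per2 they were Pmaip1, which encodes the cell death protein NOXA (0.78), the autophagy gene Atg2a (0.77) and the mitochondrial carrier gene Slc25a32 (0.74). For Per3 they were Apobec3, a restriction factor against retroviruses (0.75), the D-box factor gene Tef (0.72) and Tchp (0.69). Tef had means of 1755, 2230.5, 2978 and 2011 normalized counts at ZT1, ZT7, ZT13 and ZT19. For Cry1 they were Txndc5, a protein disulfide isomerase (0.81), the phosphatase gene Ctdp1 (0.80) and Rbak (0.80), and for Cry2 Itpkc, an inositol trisphosphate kinase (0.84), Frmd8 (0.81) and Ephb4, a receptor of venous endothelium (0.80). With the same odds, r was 0.62 for Txndc5, 0.64 for Ctdp1 and 0.29 for Rbak, between 0.45 and 0.48 for the genes like Cry2, and between -0.14 and 0.25 for those like Per2 and Per3. These correlations share the depth and the time points of the libraries and are given as descriptions.

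Among each other the members were only loosely linked. The highest r between any 2 of them over the 20 libraries was 0.51, for Per1 and Per2 (0.46 within time points), and for Per3 and Per2 it was 0.30 (-0.15 within time points). The lowest was -0.24, for Per3 and Cry1 (-0.23 within time points).

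Of the other genes of the clock, 1 of 26 passed edgeR's test among the 4 time points and 1 of 26 the 24-h test, in both Dbp, the D-box activator (adjusted p = 0.00409 and 0.0126). The 24-h call of Dbp was lost in edgeR without ZT7 replicate 3 (adjusted p = 0.0536) and with the replicate block (0.063), while the call among the 4 time points was kept in both (0.0143 and 0.0164). Dbp had means of 237 ± 41.5, 766 ± 156, 457 ± 70.6 and 192 ± 60.1 (SD, n = 5) at ZT1, ZT7, ZT13 and ZT19, a larger ratio of the highest to the lowest mean than in any member. An exon of Dbp overlaps Sphk2, a sphingosine kinase gene on the other strand, which held between 90 and 1443 counts per library against 83 to 2617 for Dbp, and reads of the shared stretch cannot be told apart. At an unadjusted p under 0.05, 10 of the 26 were found among the 4 time points (15.7% of all genes) and 8 in the 24-h test (9.23% of all genes). By role, 0 of 5 activators and Dec repressors, which include Arntl (adjusted p = 0.224 among the 4 time points), 0 of 5 REV-ERB and ROR receptors, and 0 of 12 kinases, ubiquitin ligases and partners of PER and CRY passed either test in edgeR, with 3, 2 and 2 at an unadjusted p under 0.05 among the 4 time points. Of the 4 PAR bZIP factors and Nfil3, 1 passed and 3 had such a p.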

How the data were processed

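Per the labels and the study's methods, RNA of sorted LECs was amplified as full-length cDNA (SMART-Seq v4), made into NexteraXT libraries and sequenced. The authors aligned them to mm10 (STAR), assigned them to genes (HTSeq-count) and deposited raw counts per gene symbol for each of the 20 libraries. The strand setting was not given in the sources used here. Rows that name no gene, which held between 47.5% and 96.7% of a library's total, stayed out of library sizes and tests. Samples were grouped by the time point in their titles.

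The tests used edgeR 4.0.16 in R 4.3.3 (TMM, filter by time point, quasi-likelihood F-test over all 20 libraries, Benjamini-Hochberg adjustment over 19209 genes within each test). Normalized counts are counts scaled by effective library size (geometric mean set to 1), and log2 values used a pseudocount of 1. DESeq2 1.42.0, 2 other normalizations, 2 filters, covariates, thinned counts, fits of 2 time points, the replicate block and leaving out each library were alternatives. Peak errors are jackknife SEs over libraries. Fits were tested on simulated 24-h curves with amplitudes larger than those fitted to the members. That test does not show whether curves of the members' size would be called or timed. Total counts on genes ranged from 4475111 to 42002363, so 3 counts are between 7.14e-06% and 6.7e-05% of a library.

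The genes named are the 5 members, Arntl, Dbp and the 3 genes most correlated with each member. Lyz2, Prox1, the blood endothelial markers and genes that overlap members were named after their values were seen. The members and lists were chosen with earlier results of these data known.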

Additional observations from a re-analysis of the deposited data

Results flagged for a closer look

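The log2 ratio of Per3 to Per2 in ZT7 replicate 1 (4.38) stood apart from the other day libraries, which ran from 1.78 upward. Its gap to the nearest of them was 0.713 of the group's range, just past Dixon's limit for 5 samples (0.71). Of 52 groups of 5 examined in this way 1 stood out, where chance would give about 2.6.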

How the results depend on the processing

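No direction of a member's main difference turned under any alternative, and 991 of 1009 values kept their side of the threshold or moved by less than their spread. The number of members called among the 4 time points and in the 24-h test went from 0 to 1 with DESeq2 (Per3, adjusted p = 0.0215 and 0.0199), and the number of member pairs called went from 0 to 4 with DESeq2, to 1 with the keratinocyte and fibroblast scores, and to 2 without the 2 libraries of high share. With each library left out it ran from 0 to 1, the 1 being Per1 without ZT13 replicate 5. The Per1 peak moved to 13.8 h with the odds of a read falling on a gene in the fit. Pairs of genes that differed in level numbered 8 per transcript and 9 per coding length, against 4 per exonic length. The cause of these moves was not tested, except that the last follows from the lengths.

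Counts over all genes moved more. The 81 genes called among the 4 time points became 569 with DESeq2, 272 with the 2 scores and 843 without the 2 libraries of high share, and the 6 of the 24-h test became 75, 2 and 20. With each library left out, the former ran from 30 (without ZT13 replicate 4) to 178 (without ZT19 replicate 4) and the latter from 0 (edgeR without ZT7 replicate 3, with 1585 at an unadjusted p under 0.05) to 10 (without ZT7 replicate 2). Same-numbered libraries come from different mice, and the labels do not say whether they shared a day or a batch. The correlation of their deviations averaged at most 0.17 in any pair of time points. In that pair, ZT1 and ZT13, the lowest was 0.08, and libraries of unlike number averaged -0.04. With the replicate block the calls among all genes fell to 31 and 0, and 0 members were called, with adjusted p between 0.366 and 0.908 among the 4 time points. Exact sign flips of same-numbered ratio differences cannot go below p = 0.0625 and say nothing here. The lowest counts of Per2 and Arntl were 24 and 12. With counts thinned to the smallest library, the Per2 difference from ZT1 to ZT13 was 1.36 on the log2 scale, against 1.37 with all counts.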
